A study of Bos taurus with 54 samples.

Results

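The proteasome genes described here are the 44 genes of the cattle annotation whose symbols begin with PSMA, PSMB, PSMC, PSMD, PSME or PSMF followed by a number, out of 32637 genes counted in each library. They comprise 8 genes of the alpha ring and 7 of the beta ring of the 20S core, the 3 immunoproteasome subunits PSMB8, PSMB9 and PSMB10, the thymus-type subunit PSMB11, 9 genes of the 19S base, 8 of the 19S lid, 3 base assembly chaperones, the 4 activators PSME1 to PSME4 and the inhibitor PSMF1. The samples were whole blood of 15 Holstein male calves (age not given in the sources used here), with red cells lysed before RNA extraction, so that the RNA came from the remaining leukocyte pellet. Blood was drawn at 6:30 before heat exposure (control, thermoneutral, labelled Normal) and at 18:30 after 12 h of heat from the same calves (heat stress). Each RNA was meant for both of 2 library kits that sequence the 3′ ends of mRNA, QuantSeq 3′ of Lexogen and SMART-Seq v4 3′ DE of Takara, and the comparison within each kit held 13 control and 13 heat stress libraries. All control samples were morning samples and all heat stress samples evening samples, so heat and time of day cannot be told apart.

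The proteasome is the protease that removes proteins tagged with ubiquitin. Its barrel-shaped 20S core has outer alpha rings, which gate the entrance, and inner beta rings, which carry the cutting sites. A 19S regulatory particle caps it, with a base that holds the ATPases that unfold the substrate and a lid that removes ubiquitin. In leukocytes and after interferon, the cutting subunits PSMB5, PSMB6 and PSMB7 are exchanged for PSMB8, PSMB9 and PSMB10, and the cap can be replaced by PA28, a ring of PSME1 and PSME2. The resulting immunoproteasome is known for making peptides for MHC class I.

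Reads assigned to genes ranged from 5140595 to 20699030 per Takara library and from 4516761 to 58521751 per Lexogen library. The evening libraries of animal 20, which the labels put after heat while the collection text counts 15 morning and 14 evening samples, were left out. The study's own design lists a calf, numbered 9 there, with control libraries of both kits and no heat stress sample. By the labels no calf has this pattern, and animal 20 has heat stress libraries of both kits and no control sample. Markers of neutrophils and T cells differed between the times. In Takara, where 18.4% of all genes were called higher in heat stress and 10.5% lower, 7 of 9 neutrophil genes were called higher and 4 of 8 T cell genes (CD3D, CD3E, CD3G and CD247) lower. Of the other lists, 2 of 6 monocyte genes and 1 of 5 natural killer genes were called higher. None of the 7 B cell, 4 tested platelet or 2 tested erythroid genes was called. In Lexogen, where 5.09% of all genes were called higher, 5 of 9 neutrophil genes and 1 of 5 natural killer genes were called higher and none of the other lists held a call. The haemoglobin gene HBA1 had no count in any library of either kit, but erythroid RNA was present. The 8 erythroid genes summed to a median of 1702 counts per 1000000 in Takara control libraries (range 470 to 3543). In Lexogen control libraries the median was 336 (range 125 to 632.5). In a bulk sample of this kind, fewer cells of a type and less RNA per cell cannot be told apart.

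Of the 44 genes, 42 had enough counts to be tested in each kit. PSMA8, the alpha subunit known from testis, had counts in 5 Takara and 8 Lexogen libraries, and PSMB11, the thymoproteasome subunit, in 4 and 1. The levels of the other 42 in the control libraries are given in CPM (counts per 1000000 counts of the normalized library). They were not divided by transcript length, since each transcript is sampled at its 3′ end. In Takara the highest median control level was that of PSMB9 (909 CPM, range 711 to 1318 over 13 libraries). PSMA7 (785 CPM), PSMB1 (538 CPM), PSMB3 (518 CPM), PSME1 (449.8 CPM) and PSMB10 (333 CPM) followed. The lowest of the 42 by the unstranded count was the lid gene PSMD6 (4.21 CPM, range 2.602 to 8.41), but its sense-strand counts were 1036% of the unstranded ones, so this rank is that of the unstranded count. So 2 of the 3 immunoproteasome subunits stood among the 6 highest proteasome genes of these leukocytes by Takara 3′ count, while PSMB8 stood at rank 22 (99.4 CPM).

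The order differed in Lexogen. PSMA7 had the highest control level there (313.04 CPM, range 266 to 491), PSMB9 ranked 8 (102 CPM, range 31.99 to 185) and PSMB3 ranked 35 (21.98 CPM). In the 24 RNA samples with both kits, PSMB3 was higher in Takara in all 24, with a median Takara to Lexogen ratio of 23.3, and PSMB9 was higher in all 24 with a ratio of 9.52. For PSMB8 the ratio was 1.15, with Takara higher in 16 of 24. PSME4 went the other way, with a ratio of 0.374 and Takara higher in 1 of 24. Most of the 42 genes (36) were higher in Takara in the majority of samples, and the share of all genes that were so was not counted. The spread among animals at the control time was narrower in Takara, where the coefficient of variation had a median of 16.2% over the 42 genes (6.18% for PSMA7 to 34.5% for PSMD6), than in Lexogen (36.5%, 16.6% for PSMD11 to 98.2% for PSMD6).

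**Figure D1:**
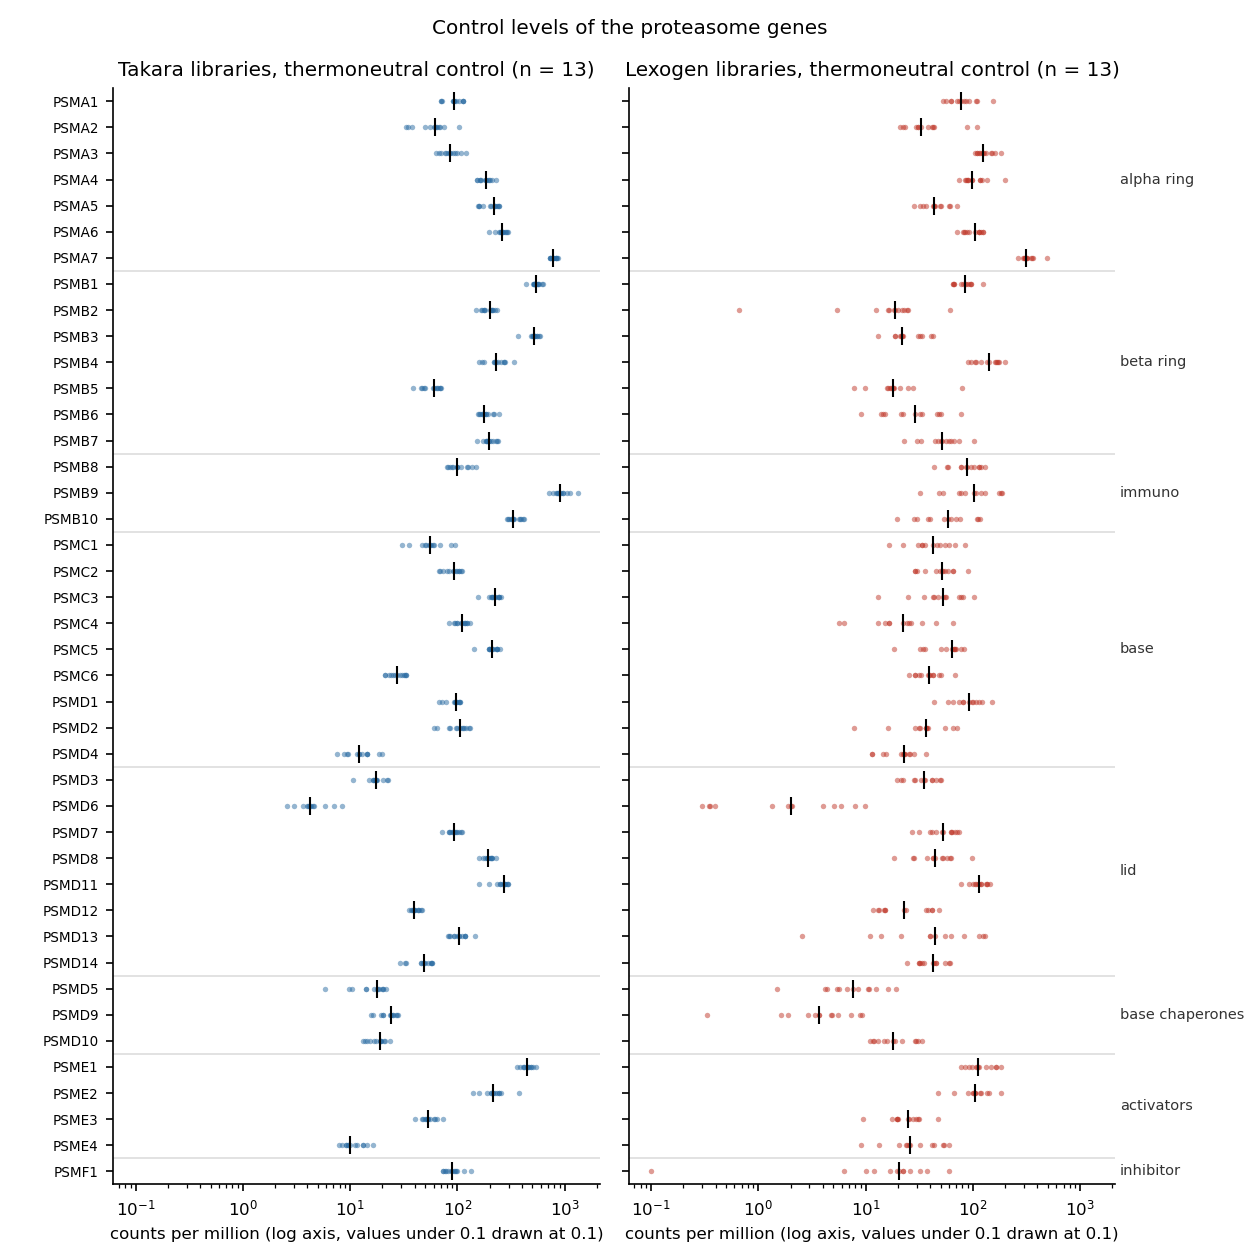
Level of each of 42 proteasome genes in the 13 control libraries of each kit, in CPM on a log axis, 1 point per library with the median as a bar, grouped by role. PSMB9 is highest in Takara (median 909 CPM) and PSMA7 in Lexogen (313.04 CPM), and the Lexogen points scatter more widely.

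Between the times, few proteasome genes changed. In Takara, 7 of the 42 tested genes (16.7%) passed an adjusted p of 0.05 in edgeR's quasi-likelihood test, 2 higher and 5 lower in heat stress, against 28.9% of all 12620 genes tested. The 2 higher genes were 4.8% of the 42, against 18.4% of all genes, and the 5 lower genes 11.9%, against 10.5%. The median log2 fold change of the 42 was -0.07, beside -0.05 over all genes, and the median of their absolute values was 0.18, beside 0.30 over all genes. At an unadjusted p of 0.05, 11 of the 42 passed, against 40.9% of all genes. The lower genes were PSMB9, PSMB10, PSME1, PSME2 and PSMC3, and the higher ones PSMA1 and PSMD6. Of the 5 genes of the immunoproteasome and PA28, 4 were thus called lower, and of the 37 other tested genes 3 were called. For every one of the 42 genes the Takara libraries of the 2 times overlapped. The share of all genes with such overlap was not counted, so this is not a trait set apart from other genes.

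In Lexogen, none of the 42 was called, against 5.55% of all 11108 genes tested (5.09% higher, 0.459% lower). DESeq2 called none either, and 1 gene (PSMD11) passed an unadjusted p of 0.05 in edgeR's test, against 16.9% of all genes. The median log2 fold change of the 42 was -0.22, beside -0.08 over all genes. Of the 42, 34 were below 0 and 8 above it, while 44.2% of all genes lay above 0. Within the 2 runs of sample numbers described below, 12 of the 42 lay above 0 in run 1 and 21 in run 2. The intervals were wide. The 95% interval reached a median of 0.53 to either side of the estimate in Lexogen and 0.24 in Takara on the log2 scale, and 31 of 42 Lexogen intervals, against 41 of 42 in Takara, lay within 1 log2 unit of no change.

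**Figure D2:**
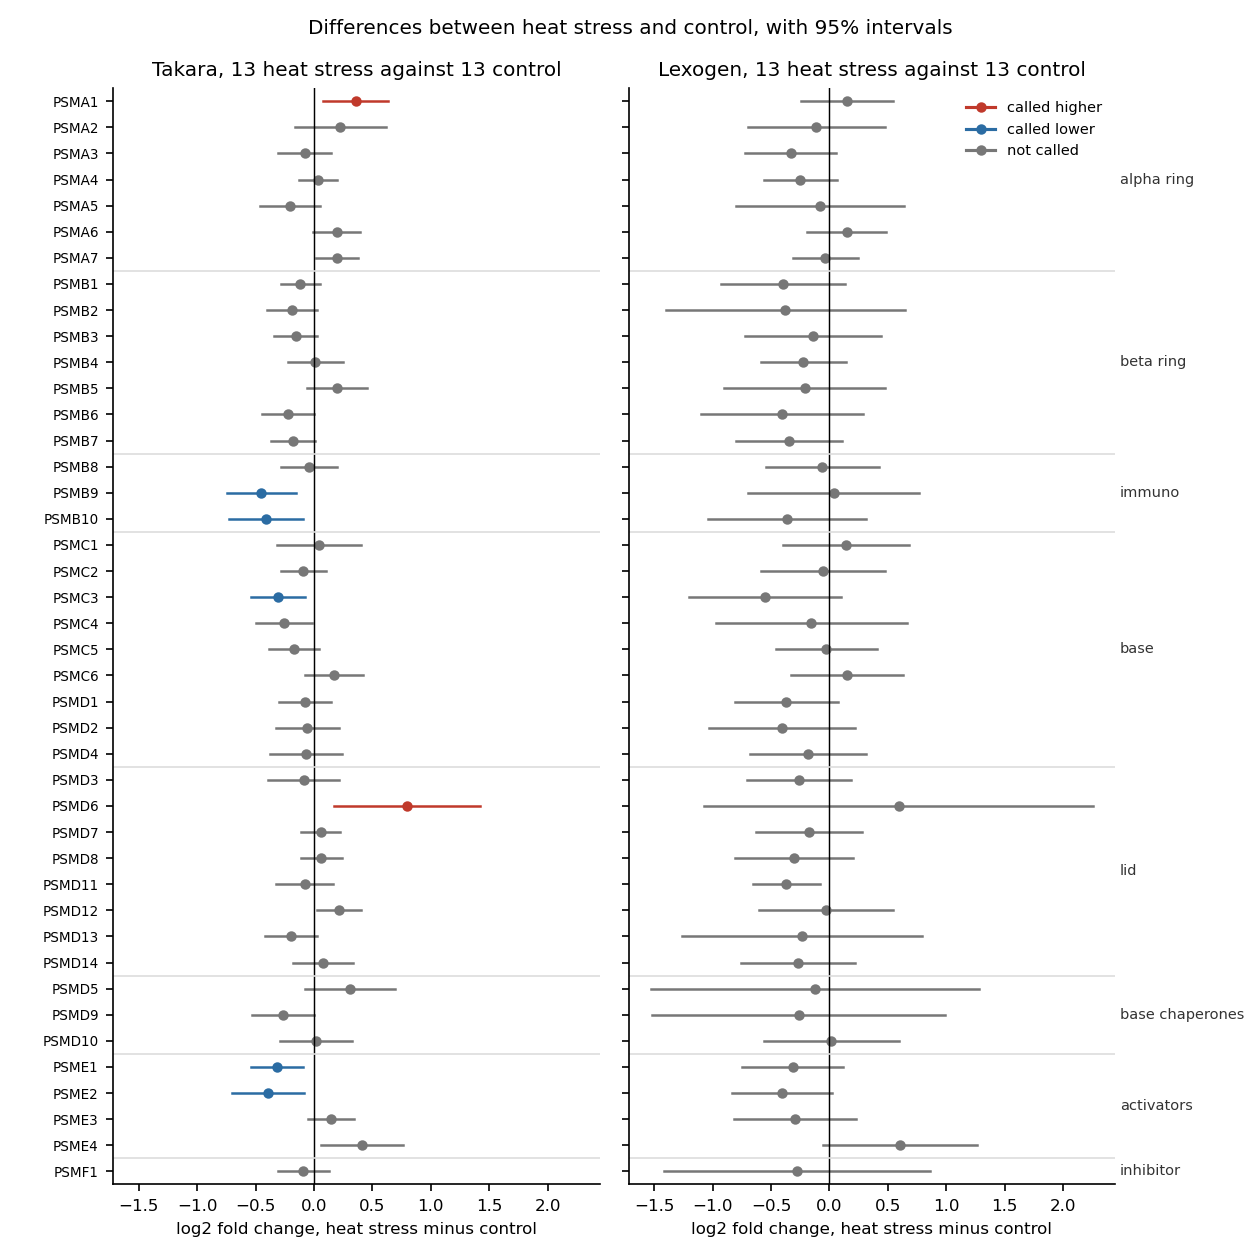
Log2 fold change, heat stress minus control, of the 42 tested proteasome genes in Takara and Lexogen (13 against 13 libraries each), with 95% intervals, grouped by role. In Takara, 5 genes were called lower (PSMB9, PSMB10, PSMC3, PSME1, PSME2) and 2 higher (PSMA1, PSMD6), and in Lexogen none was called.

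PSMB9 (beta 1i, the immunosubunit that takes the place of PSMB6) lies at chromosome 23, 7186453 to 7193346, of ARS-UCD2.0, near PSMB8 at 7173032 to 7176410. In Takara it ran from 711 to 1318 CPM at the control time, with a median of 909, and from 449 to 993 CPM in heat stress, with a median of 529. The groups overlapped, but 10 of 12 animals with both times were lower in heat stress. The log2 fold change was -0.45 (SE 0.14, adjusted p = 0.020), or 0.731 of the control level. Without animal 7 or without animal 40 the adjusted p was 0.068 and 0.050, the second just over the threshold. With the animal as a block the log2 fold change was -0.48 (adjusted p = 0.036). In Lexogen PSMB9 ran from 31.99 to 185 CPM at the control time (median 102) and from 23.4 to 481 CPM in heat stress (median 73.6). Its Lexogen log2 fold change was 0.03 (95% interval -0.70 to 0.77), and 1 library, that of animal 12, held the 481 CPM.

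PSMB10 (beta 2i, the partner of PSMB7, chromosome 18, 35417746 to 35422936) had 288.3 to 421 CPM at the control time in Takara (median 333) and 130.0 to 414 CPM in heat stress (median 240.0). It was lower in heat stress in 8 of 12 animals, by a log2 fold change of -0.41 (SE 0.16, adjusted p = 0.047). This call was lost without any of animals 3, 7, 15, 16, 18, 23, 29, 36, 40 or 41 (adjusted p from 0.050 to 0.107). With the animal as a block the value was -0.45 (adjusted p = 0.044). In Lexogen its difference was -0.37 (95% interval -1.04 to 0.31). PSMB8 (beta 5i, the partner of PSMB5) did not pass the test in either kit. Its Takara level was 79.5 to 149 CPM at the control time (median 99.4) and 75.3 to 147 CPM in heat stress (median 108). The difference was -0.04 (95% interval -0.28 to 0.20) in Takara and -0.06 (-0.55 to 0.42) in Lexogen, so a fall of the size measured for PSMB9 in Takara lay outside the Takara interval of PSMB8.

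The 2 subunits of PA28, PSME1 and PSME2, neighbours on chromosome 10 (21012734 to 21015395 and 21004530 to 21007790), were both called lower in Takara. PSME1 ran from 363 to 536 CPM at the control time (median 449.8) and from 246 to 486 CPM in heat stress (median 323), and 9 of 12 animals were lower in heat stress. Its log2 fold change was -0.32 (SE 0.11, adjusted p = 0.030), and it was lost without animal 7, 15, 36 or 40 (adjusted p from 0.058 to 0.080). PSME2 ran from 139 to 375 CPM (median 217) and from 106 to 253 CPM (median 171), with 10 of 12 animals lower. Its log2 fold change was -0.40 (SE 0.15, adjusted p = 0.049), and it held without animal 12, 32 or 41 alone. Without each of the other 11 animals its adjusted p rose to between 0.051 and 0.126. With the animal as a block PSME1 stood at -0.33 (adjusted p = 0.045) and PSME2 at -0.37 (adjusted p = 0.038) in Takara. The Lexogen differences had the same sign, -0.31 (95% interval -0.75 to 0.12) for PSME1 and -0.41 (-0.83 to 0.02) for PSME2, without passing the test.

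The other activators went the other way in Takara, without a call. PSME3 (PA28 gamma, a nuclear activator) had a log2 fold change of 0.14 (95% interval -0.05 to 0.34). PSME4 (PA200, a nuclear activator tied to histone breakdown) ran from 7.85 to 16.3 CPM at the control time and from 5.85 to 23.2 CPM in heat stress, with a difference of 0.41 (SE 0.17, adjusted p = 0.072). In Lexogen PSME3 differed by -0.29 (-0.82 to 0.23) and PSME4 by 0.60 (-0.06 to 1.27). PSMF1 (PI31, which binds the core and inhibits it in the test tube) differed by -0.09 (-0.31 to 0.13) in Takara and by -0.28 (-1.42 to 0.86) in Lexogen.

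**Figure D3:**
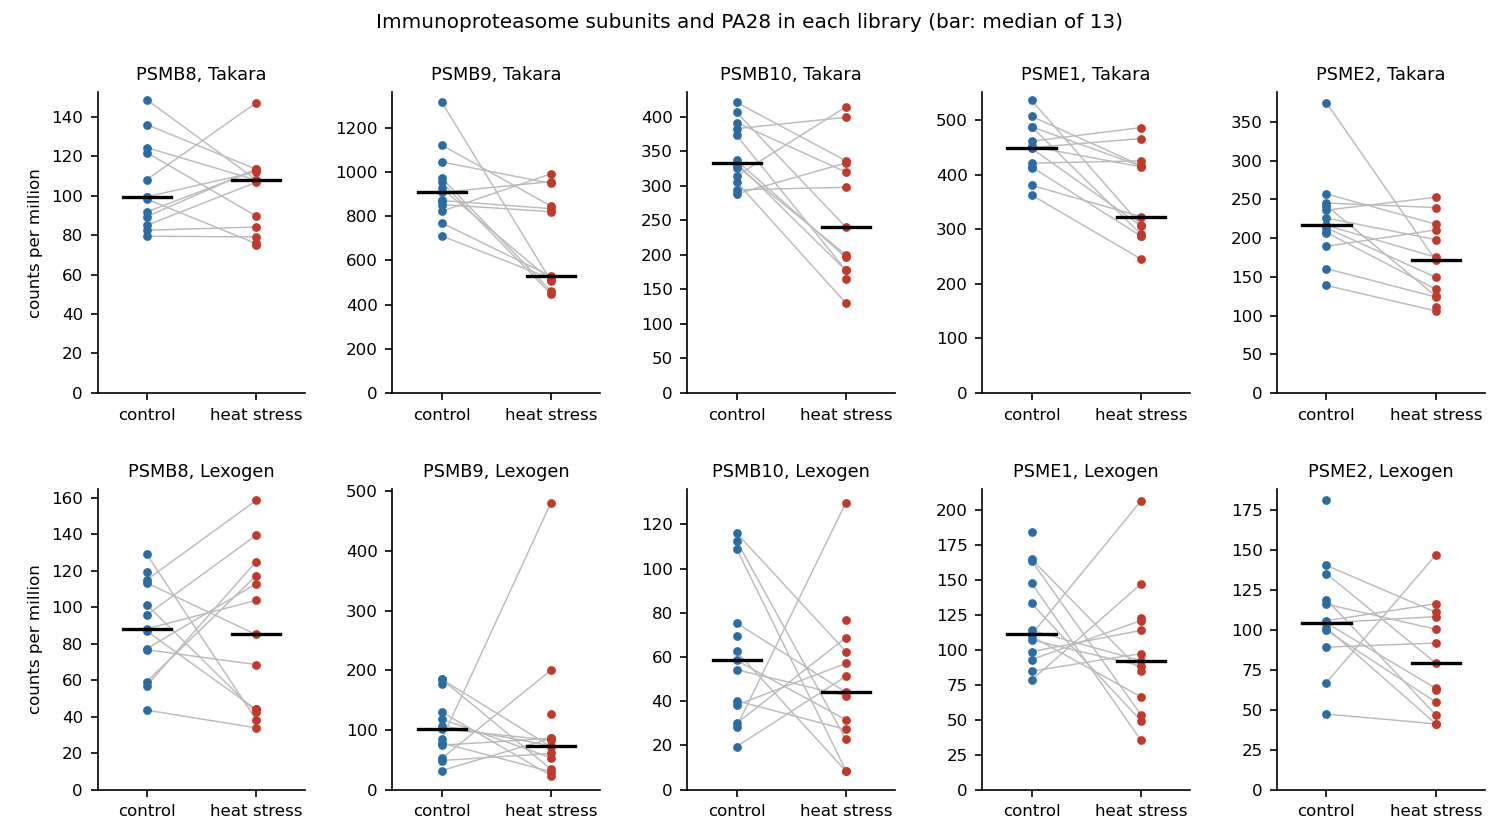
Level of PSMB8, PSMB9, PSMB10, PSME1 and PSME2 in each control and heat stress library, in CPM from 0, with the 2 times of an animal joined by a line and the median of 13 libraries as a bar, Takara above and Lexogen below. In Takara the heat stress points of PSMB9 form a lower set at 449 to 529 CPM and an upper set at 821 to 993 CPM.

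The Takara heat stress libraries did not shift as 1 body. For PSMB9, 7 of them held 449 to 529 CPM and 6 held 821 to 993 CPM, with none between, and the 13 control libraries started at 711 CPM. The lower 7 came from animals 7, 15, 16, 18, 29, 36 and 40, which include sample numbers of both runs described below. The same 7 animals gave the 7 lowest heat stress values of PSMB10 (up to 240.0 CPM, with the next at 298), of PSME1 (up to 323, next 414.5) and of PSME2 (up to 171, next 175). PSMB8 did not follow this order, and its lowest 7 libraries included animals 3, 14 and 19.

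The neutrophil genes ran against PSMB9 across the same libraries. With the 13 Takara heat stress libraries placed in ascending order of PSMB9, the summed level of the 9 neutrophil markers was 26242, 40487, 33702, 41204, 17354, 28418 and 34008 CPM for the lower 7. It was 2814, 8021, 5422, 11459, 9291 and 6503 CPM for the upper 6. Within neither set did the sum fall steadily as PSMB9 rose. At the control time this sum ran from 2370.5 to 10068 CPM and was not higher where PSMB9 was low. The control libraries of lowest PSMB9 (711, 770 and 823 CPM) held sums of 5280, 2370.5 and 2406 CPM. Those of highest PSMB9 (1046, 1123 and 1318 CPM) held 10068, 8000 and 7753.5 CPM. The summed level of the 8 T cell markers ran from 777 to 1157 CPM in the lower 7 and from 1075 to 1788 CPM in the upper 6. At the control time it ran from 1164 to 2335 CPM. The 7 B cell markers summed to 216 to 579 CPM in the lower 7 and 572 to 816 CPM in the upper 6. The 6 monocyte markers summed to 418 to 1033 CPM in the lower 7 and 323 to 546 CPM in the upper 6. The TMM factor, which scales each library against the others, was 0.69 to 0.99 in the lower 7 and 1.011 to 1.207 in the upper 6. The order was taken from PSMB9 after its values were seen, so no test was made of it, and the part of the cell markers and of the scaling in the differences of PSMB9, PSMB10, PSME1 and PSME2 was not tested. In Lexogen heat stress libraries, which held 1524 to 19939 CPM of the neutrophil genes, the lowest PSMB9 value (23.4 CPM, animal 40) stood in the library with the highest neutrophil sum, but the next lowest (29.8 CPM, animal 23) stood beside a sum of 2292 CPM.

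The exchange of cutting subunits was also measured within each library, as the ratio of the count of an immunosubunit to that of the subunit it replaces. Such a ratio does not depend on the library's scaling, but it compares 3′ counts and not proteins. In Takara the median PSMB9 to PSMB6 ratio was 5.16 at the control time and 4.23 in heat stress. On the log2 scale the 13 control libraries ran from 2.01 to 2.67 and the 13 heat stress libraries from 1.53 to 2.56, so the groups overlapped. The mean difference was -0.26, lower in 10 of 12 animals (two-sided permutation test, p = 0.0096, adjusted over 6 ratios p = 0.034). The median PSMB10 to PSMB7 ratio was 1.79 and 1.43, with log2 ratios from 0.42 to 1.08 and from -0.28 to 1.05. Its mean difference was -0.30, again lower in 10 of 12 animals (p = 0.011, adjusted p = 0.034).

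The same contrast within the 12 animals with both times gave -0.25 for PSMB9 to PSMB6 and -0.29 for PSMB10 to PSMB7. With the animals paired in this way, the exact test gave p = 0.019 and p = 0.011, and after adjustment both stood at 0.056, over the threshold. For PSMB8 to PSMB5 the median ratio was 1.77 and 1.59, the mean log2 difference -0.22 and the permutation p 0.079 (adjusted p = 0.16). In Lexogen no ratio passed the test. The mean differences there were 0.02 for PSMB8 to PSMB5, 0.15 for PSMB9 to PSMB6 and -0.19 for PSMB10 to PSMB7 (adjusted p from 0.79 to 0.97), against standard deviations of 0.74 to 1.23 among libraries of a group.

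**Figure D4:**
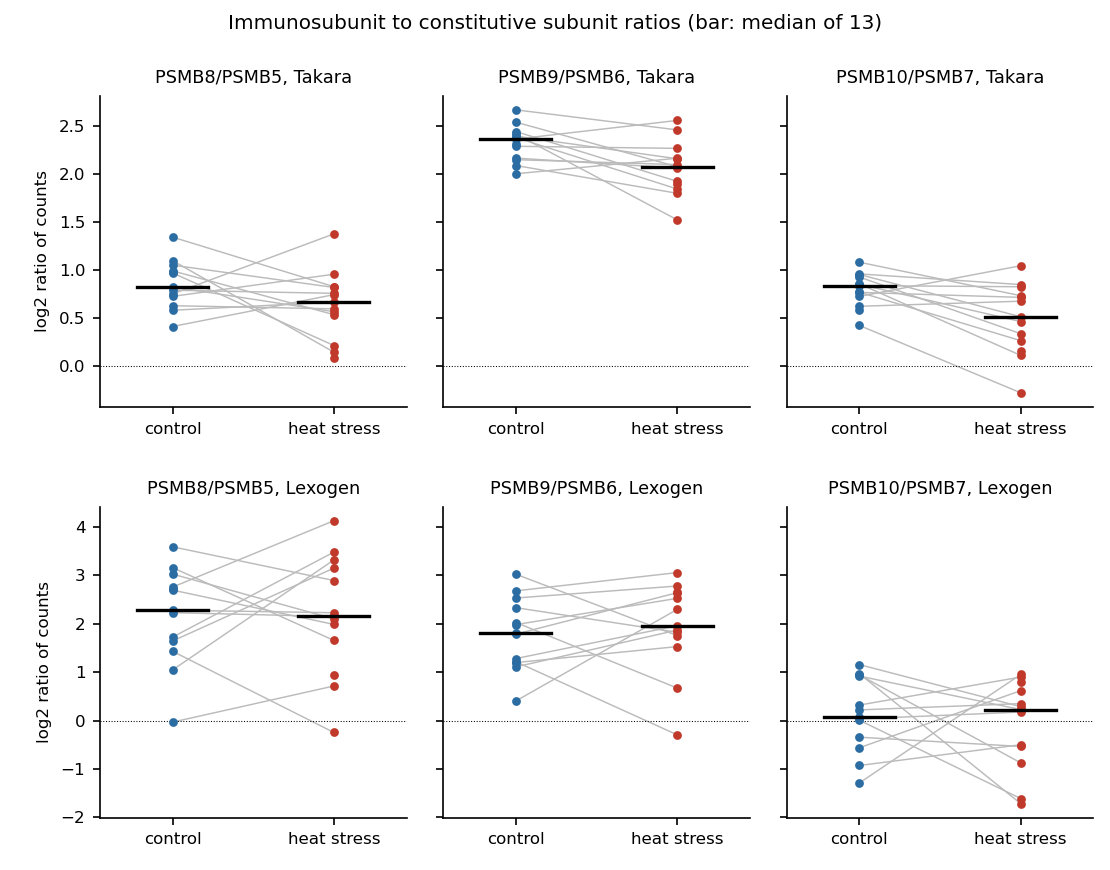
Log2 ratio of the counts of an immunosubunit to those of the constitutive subunit it replaces, per library, at the control time and in heat stress, with the 2 times of an animal joined and the median of 13 as a bar. In Takara the PSMB9 to PSMB6 and PSMB10 to PSMB7 ratios are lower in heat stress in 10 of 12 animals, and the Lexogen ratios spread over several log2 units.

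None of the constitutive partners was called. In Takara PSMB5 (beta 5) differed by 0.20 (95% interval -0.06 to 0.46), PSMB6 (beta 1) by -0.22 (-0.44 to 0.0011) and PSMB7 (beta 2) by -0.18 (-0.37 to 0.01). The other beta subunits, which shape the ring without cutting, were not called either, with PSMB3 at -0.16 (-0.34 to 0.02), PSMB2 at -0.19 (-0.40 to 0.03) and PSMB1 at -0.12 (-0.28 to 0.05). All 7 beta ring genes lay below 0 in Lexogen, from -0.40 to -0.14, also without a call. Summed over the 7 genes, the Takara beta ring level had a median of 1930.1 CPM at the control time and 1735 CPM in heat stress, and it was higher in heat stress in 2 of 12 animals.

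The alpha ring held a call in the other direction. PSMA1 (alpha 6), at chromosome 15, 38213868 to 38226751, ran from 69.7 to 112.96 CPM at the control time in Takara (median 93.8) and from 77.1 to 209 CPM in heat stress (median 109). It was higher in heat stress in 9 of 12 animals, and its log2 fold change was 0.36 (SE 0.13, adjusted p = 0.047). It held in 4 of the 14 fits that each left out 1 animal and was lost without animal 7, 12, 15, 16, 18, 19, 23, 32, 36 or 40 (adjusted p from 0.051 to 0.112). With the animal as a block the value was 0.37 (adjusted p = 0.048). When library totals were used in place of TMM scaling, which moved the median of all Takara genes from -0.05 to -0.27, its difference was 0.08 (adjusted p = 0.61), so PSMA1 was higher against the body of genes and about level against the total count.

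PSMA7 (alpha 4) was the most even of the 42 genes among the Takara control libraries. In Takara it ran from 729 to 872 CPM at the control time and from 742 to 1272 CPM in heat stress. Its difference of 0.20 (SE 0.09, adjusted p = 0.088) became -0.06 against library totals. DESeq2 called it higher (adjusted p = 0.033). PSMA6 (alpha 1) stood at 0.19 (95% interval -0.01 to 0.39) in Takara. Of the 7 tested alpha ring genes, 1 was called in Takara, beside 28.9% of all genes called in either direction. In Takara 5 of the 7 lay above 0, while PSMA5 (-0.20) and PSMA3 (-0.08) lay below it. The summed Takara level of the ring had a median of 1659 CPM at the control time and 1841 CPM in heat stress. It was higher in 9 of 12 animals. PSMA7 made up a large part of this sum, with medians of 785 and 860 CPM. In Lexogen PSMA1 differed by 0.15 (-0.24 to 0.55), PSMA6 by 0.15 (-0.19 to 0.48) and PSMA7 by -0.03 (-0.31 to 0.24).

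Of the 9 genes of the 19S base, 1 was called in Takara, beside 28.9% of all genes called in either direction. PSMC3 (RPT5, an ATPase that helps to open the gate of the core, chromosome 15, 77250375 to 77256487) ran from 154 to 252 CPM at the control time (median 223) and from 119.5 to 245 CPM in heat stress (median 167). It was lower in 11 of 12 animals, by a log2 fold change of -0.31 (SE 0.11, adjusted p = 0.042). With the animal as a block the value was -0.32 and the adjusted p 0.059, over the threshold, and it was lost without animal 7, 12, 15, 16, 18, 19, 23, 29, 36 or 40 (adjusted p from 0.052 to 0.093). Its Lexogen difference was -0.55 (95% interval -1.21 to 0.10), the lowest of the 42 in that kit. PSMC4 (RPT3) stood at -0.26 (adjusted p = 0.10) and PSMC5 (RPT6) at -0.17 (adjusted p = 0.21) in Takara. PSMD1 and PSMD2, the scaffolds of the base, and PSMD4, a ubiquitin receptor, lay between -0.08 and -0.06.

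Of the 8 lid genes, 1 was called in Takara, beside 28.9% of all genes called in either direction. This was PSMD6 (RPN7), called higher on few counts. It had a median of 54 counts per library at the control time and 52 in heat stress, or 2.602 to 8.41 CPM (median 4.21) and 2.55 to 25.9 CPM (median 5.64). The log2 fold change was 0.80 (SE 0.31, adjusted p = 0.049), higher in 9 of 12 animals. With the animal as a block it was 0.55 with an adjusted p of 0.10. It was lost without animal 7, 12, 15, 16, 18, 19, 23, 32, 36 or 40, and without animal 18, whose library held the 25.9 CPM, it was 0.49 (adjusted p = 0.20). The gene lies at chromosome 22, 37420698 to 37439310, and shares 2855 bases with ATXN7. Counting without strand drops reads in such a stretch. The deposited sense-strand counts of PSMD6 in Takara control libraries had a median of 716 against 54 without strand, and gave a difference of 0.40 (SE 0.12, adjusted p = 0.015).

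PSMD12 (RPN5) has the same feature on a smaller scale, since it overlaps an uncharacterized RNA gene and its Takara sense counts were 181% of the unstranded ones. Its difference was 0.21 (SE 0.09, adjusted p = 0.080) without strand and was called with sense counts (adjusted p = 0.047). PSMD13 (RPN9), annotated inside NBAS on chromosome 11, stood at -0.20 (95% interval -0.42 to 0.03). In Lexogen the lid gene PSMD11 (RPN6) had the smallest unadjusted p of the 42. It ran from 77.1 to 145 CPM at the control time and from 66.3 to 112 CPM in heat stress, was higher in heat stress in 1 of 12 animals and differed by -0.37 (SE 0.14, p = 0.013, adjusted p = 0.13). Its Takara difference was -0.08 (-0.32 to 0.16).

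The 3 base assembly chaperones, which hold the ATPases during construction and leave the finished particle, had no call. In Takara PSMD9 (p27) differed by -0.26 (95% interval -0.53 to 0.0036), PSMD5 (S5b) by 0.31 (-0.07 to 0.69) and PSMD10 (gankyrin) by 0.02 (-0.29 to 0.32). Their Lexogen intervals were wide, from -1.52 to 0.99 for PSMD9, which had a control median of 3.72 CPM.

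The difference between the times was compared between kits in the 24 RNA samples that had both libraries. None of the 13354 genes tested, the 42 proteasome genes included, was called for this interaction (0% of all genes, 526 genes at an unadjusted p of 0.05 and none of the 42). For PSMB9 the Takara difference minus the Lexogen difference was -0.48 (p = 0.12), for PSMC5 -0.33 (p = 0.12) and for PSMA1 0.09 (p = 0.66). The calls differed between the kits, while no difference in effect passed the test.

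The sample numbers in the labels fall into 2 runs, a lower run (run 1) and a higher run (run 2), whose meaning the labels do not give. Within run 1, with 7 control and 7 heat stress Takara libraries, the median log2 fold change of the 42 genes was -0.13 and 11 of 42 lay above 0. Within run 2, with 6 and 6, the median was 0.08 and 26 of 42 lay above 0. The calls in run 1 alone were PSME4 higher (0.76, adjusted p = 0.019) and PSMC2 (-0.35, p = 0.043), PSMC3 (-0.45, p = 0.048) and PSMC4 (-0.52, p = 0.034) lower, all adjusted, against 20.6% of all genes called in that run. Run 2 alone held no call among the 42 by edgeR's test, against 7.35% of all genes, and 4 of the 42 stood at an unadjusted p of 0.05, against 27.4% of all genes. PSMB9 differed by -0.55 (adjusted p = 0.059) in run 1 and by -0.33 (adjusted p = 0.375) in run 2, PSMB10 by -0.41 and -0.39, PSME1 by -0.30 and -0.32, and PSME2 by -0.40 and -0.38. These 4 genes had the same sign in both runs, whereas PSME4 went from 0.76 to 0.01 and PSMC2 from -0.35 to 0.24.

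The difference between the runs was tested as an interaction. None of the 42 was called in Takara, where 2.27% of 13767 genes were, or in Lexogen, where 0.0222% of 13484 were. At an unadjusted p of 0.05, 9 of the 42 passed in Takara, against 16.2% of all genes, and 6 in Lexogen, against 7.86%. The lowest adjusted p values in Takara were those of the base genes PSMC2 (run 2 minus run 1, 0.56, adjusted p = 0.062) and PSMD2 (0.78, adjusted p = 0.068). In Lexogen PSMB8 moved from -0.57 in run 1 to 0.57 in run 2 (unadjusted p = 0.011, adjusted p = 0.43).

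**Figure D5:**
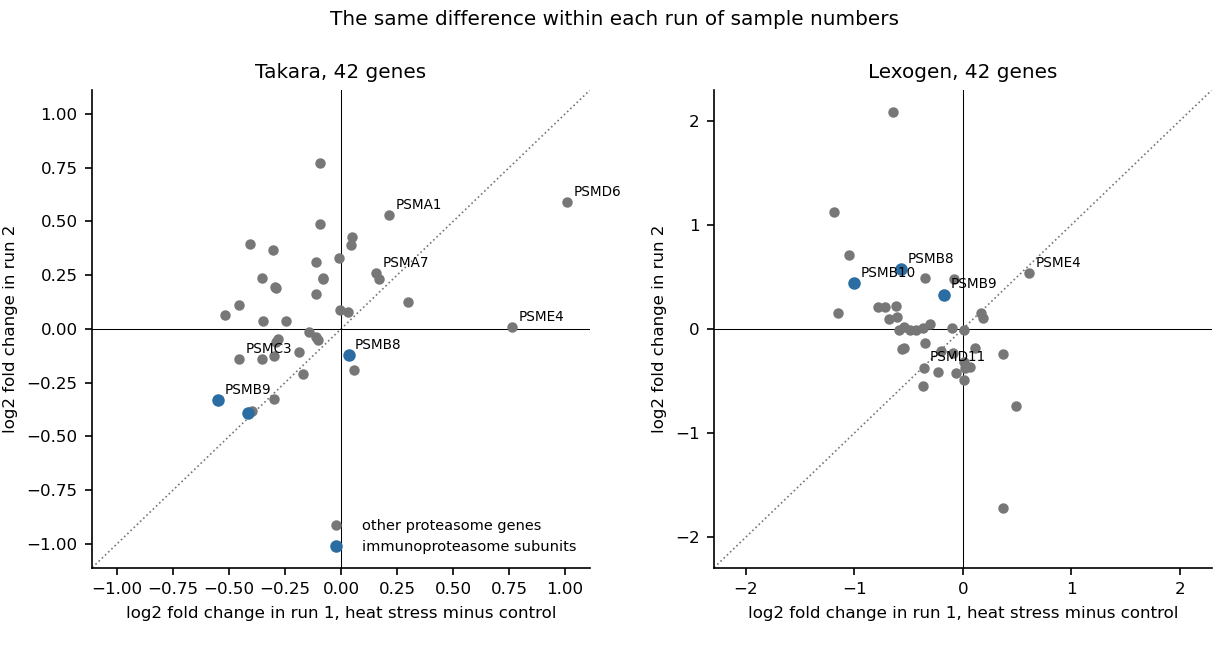
Log2 fold change, heat stress minus control, of the 42 genes within run 1 (horizontal axis) and run 2 (vertical axis) of the sample numbers, for each kit, with equality as a dotted line and the immunoproteasome subunits in blue. In Takara 34 of 42 genes have a higher value in run 2 by the interaction fit, with PSMB9 and PSMB10 below 0 in both runs.

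Genes that serve the proteasome were followed in the same fits. Of the 5 core assembly chaperones, only PSMG4 was called in Takara, where 10.5% of all genes were called lower. It ran from 259 to 511 CPM at the control time (median 337.5) and from 85.0 to 347 CPM in heat stress (median 217), lower in 10 of 12 animals, by a log2 fold change of -0.66 (SE 0.185, adjusted p = 0.009). PSMG3, its partner, stood at -0.37 (adjusted p = 0.066), and POMP, which matures the core, at 0.08 (adjusted p = 0.58). None of the 7 proteasome-bound proteins, such as the ubiquitin receptor ADRM1 (0.20, adjusted p = 0.11) and the deubiquitinase USP14 (-0.07, adjusted p = 0.68), and none of the 5 genes of the p97 unfoldase complex was called. VCP, the unfoldase itself, stood at -0.04 (adjusted p = 0.76).

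Among the 12 ubiquitin genes and shuttles, 3 were called higher and 2 lower in Takara, beside 18.4% and 10.5% of all genes. UBB, a polyubiquitin gene, ran from 1734 to 2911 CPM at the control time (median 2439) and from 2091 to 6646 CPM in heat stress (median 2880). It differed by 0.48 (SE 0.16, adjusted p = 0.024), higher in 9 of 12 animals. RPS27A, which encodes ubiquitin fused to a ribosomal protein, was called lower, by -0.40 (SE 0.12, adjusted p = 0.013), in 10 of 12 animals. The shuttle UBQLN1, which carries ubiquitinated proteins to the proteasome, was called higher (0.57, SE 0.15, adjusted p = 0.007), in 11 of 12 animals. Against library totals UBB and UBQLN1 stood at 0.18 and 0.27 without a call. In Lexogen none of the 12 genes of this list was called, with UBB at 0.02 (adjusted p = 0.97) and RPS27A at -0.47 (adjusted p = 0.096).

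Among the 6 regulators of proteasome genes, 2 were called higher in both kits, beside 18.4% of all genes in Takara and 5.09% in Lexogen. NFE2L2 (NRF2, a transcription factor of the oxidative stress response) ran from 36.3 to 99.4 CPM at the control time in Takara and from 45.2 to 366 CPM in heat stress, and differed by 1.44 (SE 0.26, adjusted p = 4.9e-04) in Takara and by 1.15 (SE 0.27, adjusted p = 0.0078) in Lexogen. Its small Maf partner MAFG ran from 25.6 to 47.8 CPM and from 36.8 to 274 CPM, and differed by 1.91 (SE 0.33) in Takara and by 1.58 (SE 0.31, adjusted p = 0.002) in Lexogen. Both Takara calls held with the animal as a block (adjusted p = 0.011 and 0.014), while the Lexogen ones moved to 0.071 and 0.061. NFE2L1 (NRF1), the factor known to raise proteasome genes when the proteasome is inhibited, stood at -0.17 in both kits (adjusted p = 0.41 and 0.78).

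Of the 8 genes on the interferon route to the immunoproteasome and its products, 1 was called higher in Takara, beside 18.4% of all genes. This was B2M, the light chain of MHC class I (0.31, SE 0.12, adjusted p = 0.045). With the animal as a block its adjusted p was 0.11, and against library totals its log2 fold change was 0.05. IRF1, a transcription factor induced by interferon, was not called in Takara, at 0.40 (adjusted p = 0.165, and 0.039 with the animal as a block). TAP1, the peptide transporter gene that neighbours PSMB9, stood at 0.05 (95% interval -0.21 to 0.31). None of the 8 was called in Lexogen.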

How the data were processed

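Whole blood RNA of 15 calves was made into 54 libraries, 27 per kit. Per the labels and the study's methods, the authors filtered forward reads with Trimmomatic 0.39 and aligned what was left by STAR 2.7.10b against ARS-UCD2.0, and the deposited values are raw read counts per gene from STAR's gene counting. The unstranded count was used here, and the sense-strand count was an alternative. Reads on both strands of overlapping genes are dropped from the unstranded count. Reads were counted without molecular identifiers. Standard errors and intervals come from the spread between libraries of different calves and therefore cover more than counting error.

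Rows that name no gene were left out of library sizes. Within each kit, 13 control and 13 heat stress libraries were compared with edgeR 4.0.16 (R 4.3.3) by the quasi-likelihood test, after filterByExpr and TMM scaling, with Benjamini-Hochberg adjustment over all genes tested and a threshold of 0.05. CPM were computed from TMM-scaled library sizes. Interactions of kit and of run with time were fitted in the same way, with the RNA sample as a block for the kit. Ratios of subunits used a pseudocount of 0.5 counts and a two-sided permutation test with 100000 resamples in scipy 1.17.1. Alternatives were the sense counts, all expressed genes, RLE scaling, library totals, DESeq2 1.42.0, the animal as a block, the run as a covariate, each run alone, animal 20 in either group and each animal left out.

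The animal pairs the samples, since the same calf gave both. Deviations from the group means correlated with a median of 0.23 within the 12 pairs in Takara (11 of 12 above 0.1, against -0.022 between animals) and of 0.021 in Lexogen (2 of 12 above 0.1). Coordinates are those of RefSeq for ARS-UCD2.0. The genes and lists were chosen with earlier results of these data known. Values are given for the immunoproteasome subunits, their partners, the activators and the inhibitor, for the 3 genes of smallest unadjusted p in each other group in Takara, and for any gene called with a log2 fold change of at least 0.5 in either direction. PSMC2, PSMD1, PSMD2, PSMD4 and PSMD11 fall outside this rule and were named after their values were seen. Some genes of the pathway lists are not reported here.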

Additional observations from a re-analysis of the deposited data

Results flagged for a closer look

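UBE3C, a ubiquitin ligase that binds the proteasome, differed between the runs of sample numbers in its Takara response. Its log2 fold change in run 2 minus that in run 1 was -1.20 (SE 0.27, adjusted p = 0.018 in edgeR's interaction test), with 0.47 (adjusted p = 0.098) in run 1 and -0.69 in run 2. The same difference in Lexogen was 0.03 (adjusted p = 0.997).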

How the results depend on the processing

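The main Takara fit called 2 proteasome genes higher and 5 lower. Each alternative was counted afresh, so its genes need not be the same, as with PSME4 in run 1. Genes called higher numbered 0 over all expressed genes, 0 against library totals and 1 with the animal as a replicate block. They numbered 1 in run 1, 0 in run 2, 1 with animal 20 as heat stress and 0 with it as control. Genes called lower numbered 7 against library totals, 1 over all expressed genes, 3 with RLE scaling, 3 with DESeq2 and 4 with the block. They numbered 3 in run 1, 0 in run 2 and 0 with animal 20 as control. The fit of all 24553 expressed genes called 3604 higher and 1303 lower in all. These counts were 2410 and 1187 with RLE scaling, 2810 and 1316 with DESeq2, and 1878 and 1285 with the block. Over the 14 fits that each left out 1 animal, 0 to 3 proteasome genes were called higher and 0 to 7 lower. Their median log2 fold change ran from -0.11 to -0.03. The median became -0.26 against library totals, where all Takara genes split into 1303 higher and 2185 lower in place of 2325 and 1321. In Lexogen no alternative called a proteasome gene, and the median ran from -0.26 to -0.11 with 1 animal left out. Over all genes, the block left 50 higher and 16 lower calls in Lexogen in place of 565 and 51. With animal 20 as control, Takara edgeR called 0 genes, with 3804 at an unadjusted p of 0.05.

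The Takara PSMB9 to PSMB6 ratio missed the threshold with the block (-0.25), in run 1 (-0.29), in run 2 (-0.22) and with animal 20 as control (-0.23). The PSMB10 to PSMB7 ratio did so with the block (-0.29), in run 1 (-0.24) and with animal 20 as control (-0.21). The PSMB8 to PSMB5 ratio passed it in run 2 (-0.46). In Lexogen the PSMB8 to PSMB5 ratio turned negative with sense counts (-0.051), in run 1 (-0.30) and with animal 20 as control (-0.049), and the PSMB10 to PSMB7 ratio turned positive in run 2 (0.55). The causes were not tested. The Lexogen spread limits what that kit could show, with a median SE of 0.26 over the proteasome genes against 0.12 in Takara.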

Other observations

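The Takara evening library of animal 20, which entered no comparison above, held PSMB9 at 409 CPM, PSMB10 at 98.0 CPM, PSMB2 at 105 CPM and PSMB6 at 104 CPM. Each was below all 26 other Takara libraries when these were scaled together. In its Lexogen library, PSMD10 (8.71 CPM) and PSMB3 (7.51 CPM) were below the other 26. The remaining 38 of 42 tested genes in Takara and 40 of 42 in Lexogen lay within the range of the other libraries.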
